A study of Mus musculus with 22 samples.

Results

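The glycolysis and lactate dehydrogenase genes described here are 10 genes of glucose breakdown, chosen by name: Hk1, Pfkl, Pfkm, Pfkp, Aldoa, Tpi1, Pgk1, Pgam1, Ldha and Ldhb. All 10 were found among the 23361 genes of the deposited matrix, and all 10 passed the filter on low levels (a mean of 0.1 FPKM or more across the libraries), as did 16978 genes in all. FPKM scales the fragments of a gene by its exon length and by the size of the library, so levels of different genes can be set side by side. The study asked how age and calorie restriction (CR) alter gene expression in hippocampal CA1, the hippocampal field whose pyramidal neurons carry its main output. Each of 22 libraries came from the microdissected CA1 of 1 female wild-type F1 mouse (Swiss Webster x DBA/C57BL6). Mice fed ad libitum (AL, a normal diet in the labels) and mice on CR, a regimen with carbohydrates reduced, were taken at 5 months (n = 5 per diet) and at 15 months (n = 6 per diet). Diets began in young adulthood, so the older CR mice had also been restricted for longer. No transgene, drug or deletion was used, and the tissue held neurons, glia and vessels together, so that a lower level in some cell type cannot be told apart from fewer cells of that type.

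Glycolysis splits glucose into pyruvate in the cytosol, yielding ATP and NADH. Hexokinase traps glucose in the cell as glucose 6-phosphate, phosphofructokinase performs the committed and most regulated step, and aldolase, triosephosphate isomerase, phosphoglycerate kinase and phosphoglycerate mutase carry the carbon onward. Lactate dehydrogenase then interconverts pyruvate and lactate; the subunit encoded by Ldha favors lactate formation and that encoded by Ldhb favors the return to pyruvate. In brain, neurons and glia both express the pathway, and lactate passes between them through monocarboxylate transporters.

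Across the 22 libraries the 10 genes were all abundantly expressed. Aldoa was highest, with a mean of 788 FPKM, followed by Tpi1 (331 FPKM), Ldhb (311 FPKM), Pgam1 (265 FPKM), Pgk1 (252 FPKM), Ldha (185 FPKM), Pfkm (141 FPKM), Hk1 (105 FPKM), Pfkl (76.5 FPKM) and Pfkp (69.1 FPKM). Some neighbors in this order overlapped between libraries, such as Tpi1 and Ldhb, Pgam1 and Pgk1, and Pfkl and Pfkp. The lowest Pfkm (126 FPKM) was above the highest Hk1 (115 FPKM), and every library had more Aldoa (659 to 992 FPKM) than any of the other genes. For comparison, the median FPKM over all genes of a library lay between 2.51 and 3.10. The steadiest gene was Hk1, whose coefficient of variation over all libraries was 5.73% and whose highest library was 1.25 times its lowest. Pfkl and Pfkp were the most variable, with coefficients of variation of 24.8% and 18.5%, and highest libraries 2.41 and 2.11 times the lowest. The other 7 genes had coefficients of variation from 7.03% (Pfkm) to 13.3% (Ldhb).

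**Figure D1:**
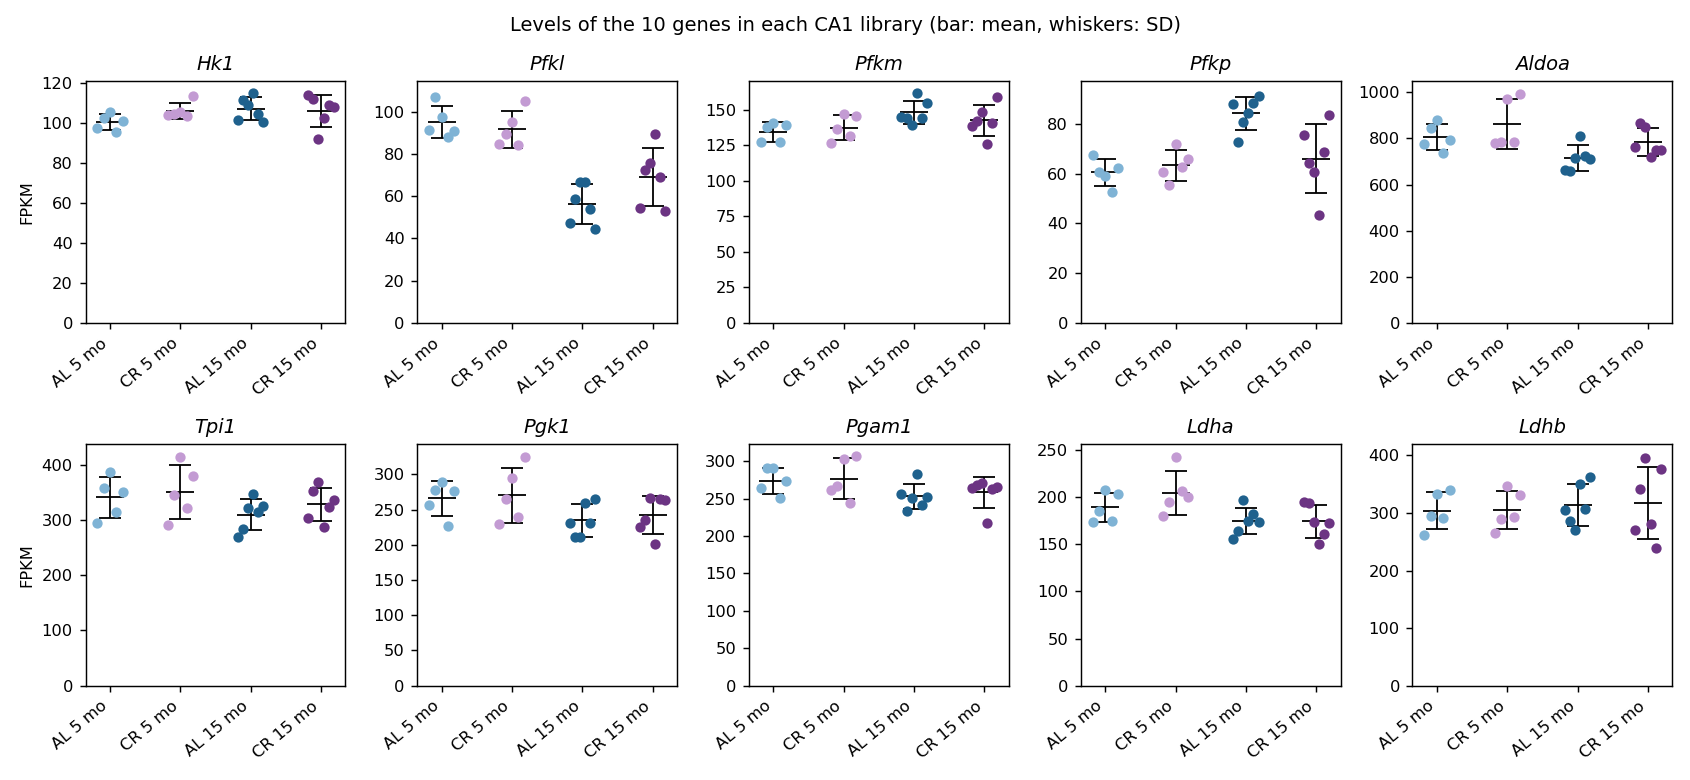
FPKM of each of the 10 genes in every library (1 point per mouse), in AL and CR mice at 5 and 15 months, with the group mean (bar) and SD (whiskers); each vertical axis starts at 0 and has its own scale. Pfkl is lower in all 6 AL mice at 15 months (44.3 to 66.8 FPKM) than in any AL mouse at 5 months (88.2 to 107 FPKM), Pfkp is higher in all of them, and the groups overlap for the other 8 genes.

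The first comparison asked what age did in AL mice. With age, 1 of the 10 genes rose (Pfkp) and 1 fell (Pfkl), and both encode isoforms of phosphofructokinase. Among all genes tested, 20.6% were called in this comparison, 10.7% higher and 9.97% lower, so 2 of 10 is near that background. A gene was called when its Benjamini-Hochberg adjusted p in limma, over all 16978 genes tested, was under 0.05. Pfkl, the liver-type isoform, which is also expressed in brain, measured 91.1, 107, 97.4, 88.2 and 91.1 FPKM in the 5 AL mice at 5 months. In the 6 AL mice at 15 months it ranged from 44.3 to 66.8 FPKM, with a median of 56.4 FPKM. Every older AL mouse was therefore below every younger one. The group means were 95.0 ± 7.51 FPKM (SD, n = 5) and 56.3 ± 9.54 FPKM (SD, n = 6), so that the older mean was 59.2% of the younger. On the log2(FPKM + 0.1) scale, the fitted difference was -0.77 with a standard error (SE) of 0.13 (limma, adjusted p = 0.000637).

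Pfkp, the platelet-type isoform, which is abundant in brain, moved the other way. It measured 67.6, 60.7, 59.0, 52.8 and 62.3 FPKM in the AL mice at 5 months. At 15 months the AL mice ranged from 72.7 to 91.1 FPKM with a median of 86.3 FPKM, and again no library overlapped. The mean rose from 60.5 ± 5.37 FPKM (SD, n = 5) to 84.2 ± 6.69 FPKM (SD, n = 6), or 139% of the younger mean. The difference was 0.48 on the log2 scale (SE 0.12, limma, adjusted p = 0.00864). Of all genes tested, 14.0% had AL groups that did not overlap between the ages.

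Pfkm, the muscle-type isoform and the most abundant of the 3 in CA1, was 135 ± 6.94 FPKM in the younger (SD, n = 5) and 148 ± 8.37 FPKM in the older AL mice (SD, n = 6), a log2 difference of 0.14 (SE 0.06) that did not pass (limma, adjusted p = 0.119). All 6 older AL mice were above the median of the younger ones, but the groups overlapped.

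The levels of the 3 isoforms added up to nearly the same value in each group. The summed FPKM was 290 ± 14.2 in AL and 292 ± 21.4 in CR mice at 5 months (SD, n = 5 each), and 289 ± 13.1 in AL and 277 ± 12.9 in CR mice at 15 months (SD, n = 6 each). What differed was the makeup of that sum. In AL mice at 5 months, Pfkl supplied 32.7 ± 1.46% of it, Pfkm 46.4 ± 1.49% and Pfkp 20.9 ± 1.69% (SD, n = 5). In AL mice at 15 months the shares were 19.5 ± 3.02% for Pfkl, 51.3 ± 1.65% for Pfkm and 29.2 ± 2.32% for Pfkp (SD, n = 6). Pfkl thus outranked Pfkp in all younger AL libraries and ranked below it in all older ones, with Pfkl shares of 31.1 to 35.0% against 15.3 to 23.2%.

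**Figure D2:**
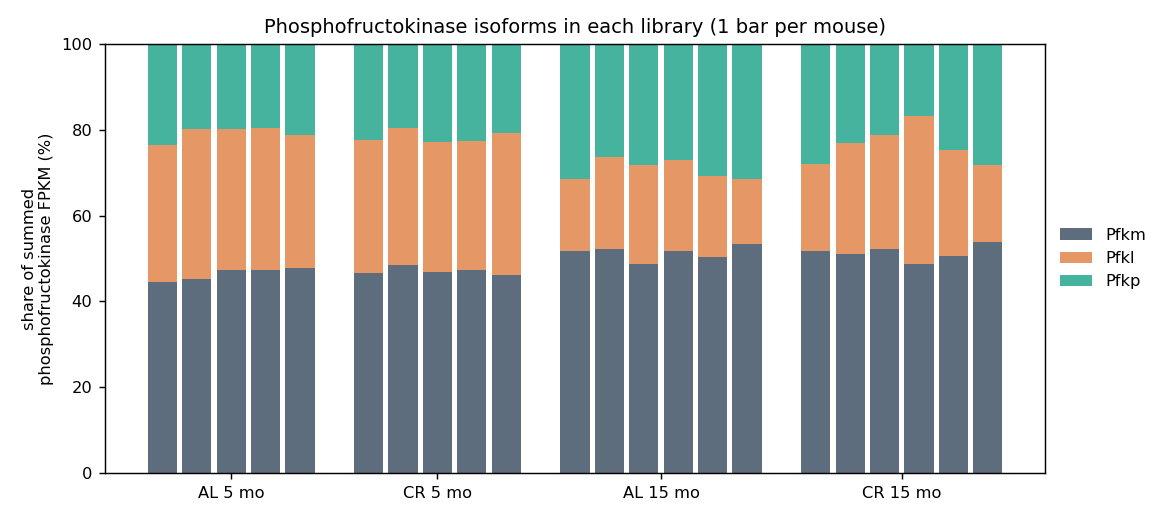
Share of the summed phosphofructokinase FPKM (vertical axis, percent) taken by Pfkm, Pfkl and Pfkp, with 1 bar per mouse grouped by diet and age. At 5 months Pfkl takes about as much in AL (32.7%) as in CR mice (31.3%); at 15 months it takes 19.5% in AL mice and 25.0% in CR mice, where single mice range from 17.9 to 34.6%.

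To compare isoforms without regard to library scaling, the log2 ratio of Pfkm to each of the other isoforms was taken within each library. The ratio of Pfkm to Pfkl rose from 0.50 ± 0.09 (SD, n = 5) to 1.41 ± 0.26 (SD, n = 6) with age in AL mice, with an exact two-sided permutation p of 0.00433, the smallest that 6 against 5 libraries allow over 462 divisions. Adjusted over the 12 ratio tests made here, that p was 0.0519 and missed 0.05. The ratio of Pfkm to Pfkp went from 1.16 ± 0.15 (SD, n = 5) to 0.82 ± 0.12 (SD, n = 6; exact permutation p = 0.0130, adjusted 0.0606). None of the 12 ratio tests passed after adjustment. With 462 divisions, or the 252 of the diet comparison at 5 months, a lone result at the smallest p could not pass over 12 tests. Not passing therefore says little about the ratios in those comparisons. The diet comparison at 15 months has 924 divisions, where a lone result at the smallest p could have passed.

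The promoter windows of the 2 genes that passed are shown because their transcripts moved in opposite directions. That of Ldha is shown for contrast, since it holds the letters ACGTG and the windows of Pfkl and Pfkp do not. Sequences are from RefSeq on GRCm38.p6, from 250 bases before to 50 bases after the annotated start, written 5′ to 3′ on the strand of the gene. They lie at chr10:78009758-78010057 (minus strand) for Pfkl, chr13:6648722-6649021 (minus strand) for Pfkp and chr7:46845554-46845853 (plus strand) for the first Ldha window. Capitals mark GGGCGG, the letters of a GC box, and ACGTG, a form of the core of the hypoxia response element, each on either strand. Other forms of that core, such as GCGTG, were not marked or counted. An ACGTG that lies in CACGTG, an E-box, is read on both strands.
Pfkl: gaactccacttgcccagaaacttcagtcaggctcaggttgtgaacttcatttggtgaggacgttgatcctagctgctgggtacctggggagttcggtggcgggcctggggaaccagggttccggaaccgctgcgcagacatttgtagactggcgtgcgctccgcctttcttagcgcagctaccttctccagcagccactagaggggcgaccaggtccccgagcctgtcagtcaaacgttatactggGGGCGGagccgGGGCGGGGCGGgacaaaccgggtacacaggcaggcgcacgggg
Pfkp: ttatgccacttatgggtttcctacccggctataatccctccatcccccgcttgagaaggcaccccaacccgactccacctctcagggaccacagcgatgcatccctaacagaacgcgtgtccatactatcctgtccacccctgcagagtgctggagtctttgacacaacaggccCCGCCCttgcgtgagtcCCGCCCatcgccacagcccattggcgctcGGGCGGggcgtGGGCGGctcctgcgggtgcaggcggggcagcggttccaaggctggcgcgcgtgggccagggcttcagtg
Ldha: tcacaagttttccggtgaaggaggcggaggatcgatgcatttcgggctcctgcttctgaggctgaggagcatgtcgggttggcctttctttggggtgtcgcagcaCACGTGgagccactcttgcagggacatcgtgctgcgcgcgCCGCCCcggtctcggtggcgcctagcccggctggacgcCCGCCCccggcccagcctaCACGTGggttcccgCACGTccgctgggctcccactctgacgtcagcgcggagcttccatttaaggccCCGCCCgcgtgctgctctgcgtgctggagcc
Pfkl held GGGCGG 3 times and Pfkp 4 times, in either orientation, and neither held ACGTG. The Ldha window held ACGTG 5 times, counting both strands, and GGGCGG 3 times. RefSeq gave 17 windows for the 10 genes, of which 8 windows (6 genes) held ACGTG and 8 windows (7 genes) held GGGCGG. Some windows of 1 gene overlap, so these windows are not separate stretches. In Aldoa, 2 overlapping windows hold the same ACGTG and GGGCGG letters, which are counted in both. Over all 32851 promoter windows of that length, 19.6% held ACGTG and 35.7% held GGGCGG. The windows of the 10 genes contained 36.7 to 67.3% G and C, against a median of 52.7% over all windows. GGGCGG was chosen after the expression values were seen, and a match is only a description of the letters.

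The 8 genes other than Pfkl and Pfkp did not pass with age in AL mice, and their fitted log2 differences lay between -0.18 (Pgk1) and 0.14 (Pfkm). Hk1, the main hexokinase of brain, was 100 ± 3.98 FPKM in the younger (SD, n = 5) and 107 ± 5.78 FPKM in the older mice (SD, n = 6), a log2 difference of 0.09 (SE 0.06, limma, adjusted p = 0.247). Aldoa, the aldolase that splits fructose 1,6-bisphosphate, measured 777, 846, 880, 736 and 791 FPKM at 5 months and 659 to 812 FPKM (median 714) at 15 months, for a log2 difference of -0.17 (SE 0.10, limma, adjusted p = 0.213). The younger and older groups overlapped in part of their range. Tpi1, which interconverts the triose phosphates, was 341 ± 36.8 FPKM (SD, n = 5) and 310 ± 28.5 FPKM (SD, n = 6), a log2 difference of -0.14 (SE 0.10, limma, adjusted p = 0.346). Pgk1, the first ATP-yielding enzyme of the pathway, was 266 ± 24.7 FPKM and 235 ± 23.3 FPKM, a log2 difference of -0.18 (SE 0.10, limma, adjusted p = 0.216). Pgam1, the mutase that follows it, was 274 ± 17.3 FPKM and 253 ± 16.7 FPKM, a log2 difference of -0.11 (SE 0.08, limma, adjusted p = 0.293). These 4 enzymes of the middle of the pathway had lower means in the older AL mice, but none passed and all 4 had overlapping groups. Over all 10 genes the median log2 difference was -0.11, against -0.0018 over all genes tested.

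Ldha was 189 ± 15.7 FPKM in younger AL mice (SD, n = 5) and 175 ± 14.3 FPKM in older ones (SD, n = 6), a log2 difference of -0.11 (SE 0.09, limma, adjusted p = 0.354). Ldhb was 304 ± 32.1 FPKM and 314 ± 36.3 FPKM, a log2 difference of 0.04 (SE 0.12, limma, adjusted p = 0.829). Ldhb was the higher of the pair in every AL library of both ages. Ldha supplied 38.4 ± 1.03% of the summed lactate dehydrogenase FPKM in AL mice at 5 months (SD, n = 5) and 35.9 ± 3.62% at 15 months (SD, n = 6). Younger AL mice lay within 37.4 to 39.96%, whereas older AL mice spread from 32.4 to 42.2%, on both sides of the younger range. The log2 ratio of Ldha to Ldhb differed by -0.16 with age (exact permutation p = 0.139, adjusted over 12 tests 0.201).

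**Figure D3:**
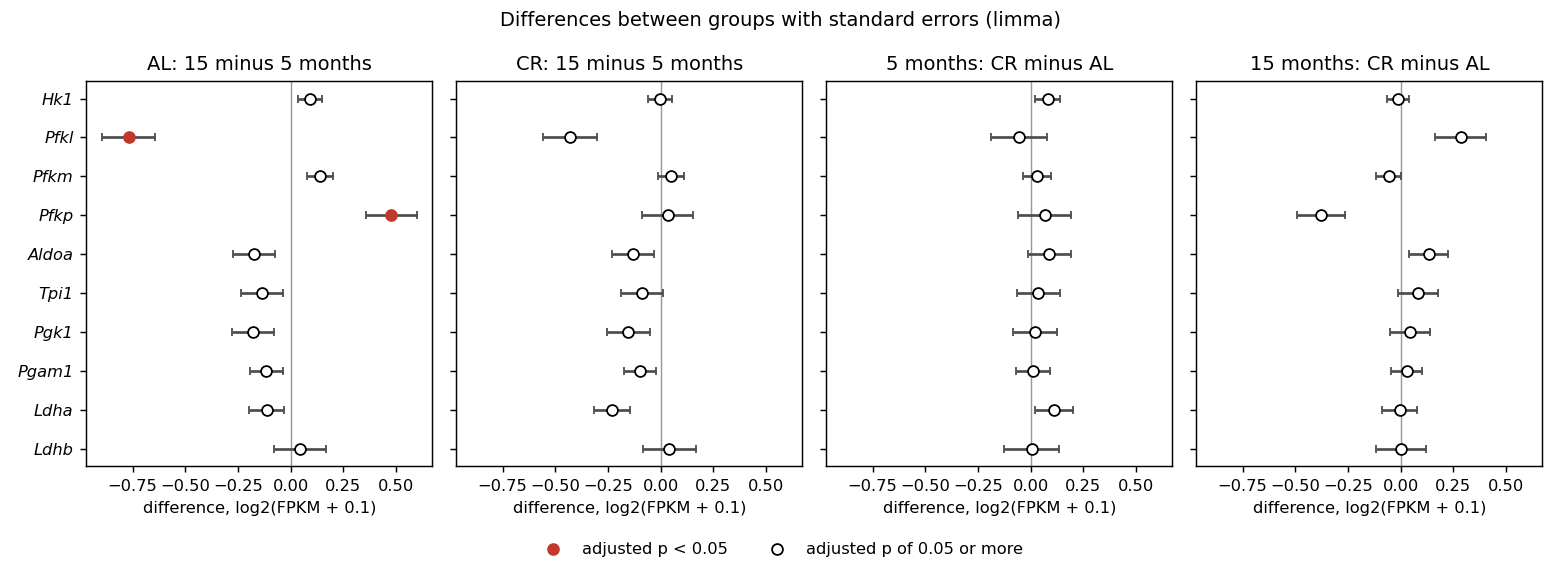
Fitted differences between groups for the 10 genes on the log2(FPKM + 0.1) scale (horizontal axis), with whiskers of 1 SE, for age in AL mice, age in CR mice, diet at 5 months and diet at 15 months; filled points passed an adjusted p under 0.05 in limma. Only Pfkl (-0.77) and Pfkp (0.48) with age in AL mice are filled, and at 15 months the open points of the same 2 genes lie farthest from 0, at 0.29 and -0.38.

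In CR mice, none of the 10 genes passed with age, where 3.36% of all genes did; 2 of the 10 had an unadjusted p under 0.05, as did 3049 genes overall. Pfkl measured 84.5, 89.4, 95.2, 84.1 and 105 FPKM in CR mice at 5 months and 52.9 to 89.4 FPKM (median 70.6) in CR mice at 15 months. Of the older libraries only replicate 3, at 89.4 FPKM, lay within the younger range, and the others were below it. The mean went from 91.6 ± 8.64 FPKM (SD, n = 5) to 68.9 ± 13.7 FPKM (SD, n = 6), 75.2% of the younger mean, a log2 difference of -0.43 (SE 0.13, limma, adjusted p = 0.0674). This value depended on 1 library. Without replicate 3 of the older CR mice, whose Pfkl was 89.4 FPKM, the difference was -0.51 and passed (limma, adjusted p = 0.0187).

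Pfkp was 63.4 ± 6.20 FPKM in the younger (SD, n = 5) and 66.0 ± 13.8 FPKM in the older CR mice (SD, n = 6), a log2 difference of 0.03 (SE 0.12, limma, adjusted p = 0.920). Its older libraries spread from 43.2 to 83.6 FPKM, below and above the younger range of 55.3 to 72.0 FPKM. Ldha measured 180, 195, 242, 206 and 201 FPKM at 5 months and 151 to 195 FPKM at 15 months (median 173), a log2 difference of -0.23 (SE 0.09, limma, adjusted p = 0.150). Pgk1 differed by -0.15 (SE 0.10, limma, adjusted p = 0.452). The 8 genes without Pfkl and Pfkp lay between -0.23 (Ldha) and 0.05 (Pfkm). No gene of the 10 had CR groups that did not overlap between the ages, against 3.26% of all genes tested. The log2 ratio of Pfkm to Pfkl differed by 0.48 (exact permutation p = 0.0216, adjusted 0.0649), and that of Ldha to Ldhb by -0.27 (exact permutation p = 0.0736, adjusted 0.147).

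At 5 months, diet separated none of the 10 genes. No gene of the whole matrix passed in limma in this comparison (0% called), although 789 had an unadjusted p under 0.05, none of them among the 10. The largest fitted difference was that of Ldha, 0.11 (SE 0.09, limma, adjusted p = 1), with means of 189 ± 15.7 FPKM in AL and 205 ± 23.3 FPKM in CR mice (SD, n = 5 each). Hk1 differed by 0.08 (SE 0.06, limma, adjusted p = 1) and Pfkl by -0.05 (SE 0.13, limma, adjusted p = 1). In 9 of the 10 genes the CR mean of log2 levels was the higher, and the median difference over all 10 was 0.03. None of the 10 had diet groups that did not overlap, against 1.36% of all genes. Ldha supplied 40.2 ± 1.42% of lactate dehydrogenase FPKM in CR mice (SD, n = 5), and the log2 ratio of Ldha to Ldhb was 0.11 higher than in AL mice (exact permutation p = 0.0635, adjusted 0.147).

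At 15 months, the difference between diets was greatest in Pfkl and Pfkp, each in the direction of the younger level, but neither passed. Of all genes 0.742% were called in this comparison. Pfkl was 68.9 ± 13.7 FPKM in CR and 56.3 ± 9.54 FPKM in AL mice (SD, n = 6 each), so that the CR mean was 122% of the AL mean. The log2 difference was 0.29 (SE 0.12, limma, adjusted p = 0.236). Pfkp was 66.0 ± 13.8 FPKM in CR and 84.2 ± 6.69 FPKM in AL mice (SD, n = 6 each), 78.3% of the AL mean, and differed by -0.38 (SE 0.11, limma, adjusted p = 0.113). Pfkp passed when either of 2 CR libraries was left out, with -0.42 without replicate 0 (limma, adjusted p = 0.0484) and -0.45 without replicate 5 (limma, adjusted p = 0.0355). The CR mice did not move as 1 group. In replicates 1, 2, 3 and 4, Pfkl lay above the whole AL range at 15 months and Pfkp below it, whereas in replicates 0 and 5 both genes lay within the AL range. This is a description of 6 mice, in which the same 4 stood outside for both genes. None of the 10 genes separated the diets without overlap, as 0.984% of all genes did.

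Aldoa was 784 ± 60.2 FPKM in CR and 715 ± 55.4 FPKM in AL mice at 15 months (SD, n = 6 each), a log2 difference of 0.13 (SE 0.09, limma, adjusted p = 0.486). Without Pfkl and Pfkp, the fitted differences ran from -0.06 (Pfkm) to 0.13. The Ldha share was 35.8 ± 4.56% in CR and 35.9 ± 3.62% in AL mice (SD, n = 6 each), and the log2 ratio of Ldha to Ldhb differed by -0.0065 (exact permutation p = 0.970, adjusted 0.970). The log2 ratio of Pfkm to Pfkp was 0.32 higher in CR mice (exact permutation p = 0.0152, adjusted 0.0606), and that of Pfkm to Pfkl differed by -0.34 (exact permutation p = 0.0866, adjusted 0.148).

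Whether age acted differently under the 2 diets was tested by the age by diet interaction. None of the 10 genes passed, and no gene of the matrix did in limma (0% called, 1301 with an unadjusted p under 0.05). The interaction was 0.34 for Pfkl (SE 0.18, limma, adjusted p = 0.667) and -0.44 for Pfkp (SE 0.17, limma, adjusted p = 0.628). The fall of Pfkl and the rise of Pfkp seen in AL mice were therefore not shown to differ from the values in CR mice. Both diet comparisons and both age comparisons share libraries, so their values stand side by side and are not independent of each other.

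The balance of regional markers in the dissected tissue moved with Pfkl and Pfkp. Of 5 markers of CA1 pyramidal neurons, 3 fell with age in AL mice: Fibcd1 by 3.35, Spink8 by 3.81 and Pou3f1 by 2.02 on the log2 scale. The other members of that list did not pass: Wfs1 had a higher mean in the older mice (from 56.5 to 83.4 FPKM; 0.63, limma, adjusted p = 0.156), and Mpped1 differed by -0.16 (limma, adjusted p = 0.655). Of 7 markers of neocortex and subiculum, which lie next to CA1, 3 rose, by 1.47 (Tbr1), 0.88 (Rorb) and 2.11 (Cux2). The others did not pass: Fezf2 had a lower mean in the older mice (from 22.9 to 18.4 FPKM, -0.32, limma, adjusted p = 0.386). Nr4a2 differed by 0.95 (limma, adjusted p = 0.0582), Scnn1a by 0.69 (limma, adjusted p = 0.308) and Fn1 by 0.40 (limma, adjusted p = 0.370). Of all genes tested, 20.6% were called in this comparison. The summed FPKM of the CA1 markers was 210 to 467 in AL mice at 5 months, 172 to 265 in AL mice at 15 months and 83.8 to 408 in CR mice at 15 months, and no listed marker was at 0 in a whole group. That of the neocortex and subiculum markers was 64.5 to 82.2, 72.3 to 164 and 64.2 to 185. The region score, the mean log2 level of the neocortex and subiculum list minus that of the CA1 list, had medians of -3.23 in AL and -2.99 in CR mice at 5 months, -0.39 in AL and -1.19 in CR mice at 15 months, with no overlap between the AL ages (-3.75 to -2.28 against -1.57 to 0.50). Replicate 3 of the older CR mice had the lowest score of its group (-2.81), the highest Pfkl (89.4 FPKM) and the lowest Pfkp (43.2 FPKM). Replicate 4 had the highest score of that group (-0.18), yet its Pfkl (68.9 FPKM) was above and its Pfkp (68.6 FPKM) below the whole range of the older AL mice. With the region score as a covariate, neither gene passed with age in AL mice: the difference became -0.29 for Pfkl (limma, adjusted p = 0.457) and 0.06 for Pfkp (limma, adjusted p = 0.912). Since the score separated the ages, age and the balance of regional markers cannot be told apart in these AL mice.

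Markers of other cell types and regions were counted as well with age in AL mice, where 20.6% of all genes were called. The median log2 difference was -2.75 for choroid plexus and -1.67 for dentate gyrus markers, against -2.02 for the CA1 list. For the remaining lists given here it lay between -0.80 (oligodendrocyte) and 0.21 (endothelium). None of 6 pan-neuronal, 6 interneuron, 5 endothelial or 5 erythrocyte markers passed, 1 of 6 oligodendrocyte, 1 of 6 microglial, 2 of 5 dentate gyrus and 5 of 6 choroid plexus markers fell, and of 7 astrocyte markers 1 rose and 1 fell. The summed pan-neuronal markers were 1537 to 1905 FPKM at 5 months and 1472 to 1954 FPKM at 15 months, those of oligodendrocytes 1107 to 1726 and 546 to 1184 FPKM, and those of choroid plexus 37.6 to 355 and 3.44 to 25.3 FPKM. At 15 months none of the listed markers passed between the diets. The part of these lists in the Pfkl and Pfkp values was not tested.

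**Figure D4:**
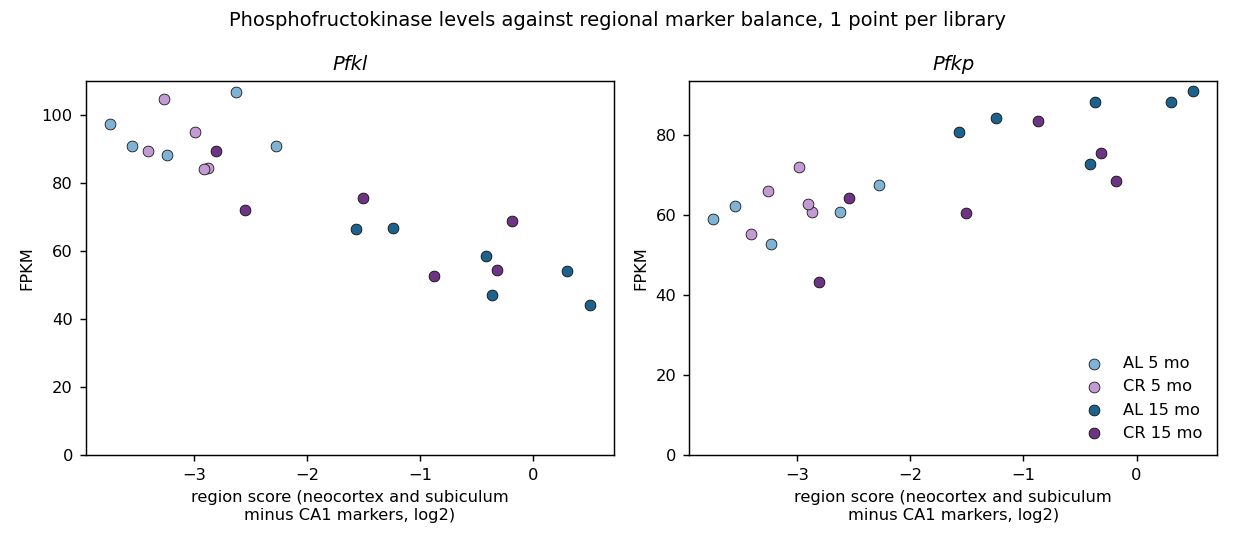
FPKM of Pfkl (left) and Pfkp (right) against the region score, the mean log2 level of neocortex and subiculum markers minus that of CA1 markers, with 1 point per library colored by group. The AL mice at 5 months lie at scores of -3.75 to -2.28 and those at 15 months at -1.57 to 0.50, where Pfkl is lower and Pfkp higher; the older CR mice spread across both ranges.

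Of 18 other glycolytic enzymes tested, 3 rose and 2 fell with age in AL mice, and the median log2 difference was -0.04. Among all genes tested, 20.6% were called in this comparison. A count near that share, here or in the lists that follow, is not a result about the list. Among the genes that rose, low in CA1, were Gapdhs, the sperm-type glyceraldehyde phosphate dehydrogenase, by 0.50 (from 1.39 to 2.01 FPKM; limma, adjusted p = 0.0142), and Eno3, the muscle-type enolase, by 0.55 (from 3.98 to 5.93 FPKM; limma, adjusted p = 0.0107). Pgam2, the muscle-type isoform of Pgam1, fell by 0.98 (from 15.5 to 8.27 FPKM; limma, adjusted p = 0.0142), and Bpgm, which makes 2,3-bisphosphoglycerate, fell by 0.37 (from 34.4 to 26.5 FPKM; limma, adjusted p = 0.00796). The main neural isoforms did not pass: Gpi1, the isomerase between hexokinase and phosphofructokinase, had group means of 223 to 240 FPKM, Aldoc 364 to 396 FPKM, Eno1 147 to 173 FPKM, Eno2 302 to 339 FPKM and Pkm, the pyruvate kinase, 440 to 511 FPKM. Hk2 was near 1 FPKM in all groups (0.989 to 1.22 FPKM). Ldhd, the dehydrogenase of D-lactate, was 7.04 FPKM in AL mice at 5 months and 9.24 FPKM at 15 months and did not pass (limma, adjusted p = 0.0773).

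Among the genes around the pathway, 2 of 8 glucose and lactate transporters rose and 1 fell with age in AL mice, against 20.6% of all genes called. Slc2a3, the neuronal glucose transporter, rose by 0.34 (from 40.5 to 51.3 FPKM; limma, adjusted p = 0.0335), a call lost in 9 of 32 alternatives, 7 of them with a single AL library left out (replicate 1, 2, 3 or 4 at 5 months, or 2, 4 or 5 at 15 months). Slc16a3, a monocarboxylate transporter that exports lactate, rose by 1.48 from a low level (from 1.06 to 3.62 FPKM; limma, adjusted p = 0.0167). Slc16a1, another monocarboxylate transporter, fell by 0.40 (from 13.5 to 10.2 FPKM; limma, adjusted p = 0.00760). Slc2a1, the glucose transporter of vessels and glia, had group means of 36.7 to 41.5 FPKM, and Slc16a7, the main neuronal monocarboxylate transporter, 5.01 to 5.85 FPKM; neither passed. Of 7 regulators of glycolysis tested, 1 rose (Fbp2, a fructose bisphosphatase at or under 0.422 FPKM in every library of these AL groups) and none fell.

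Of 14 genes for the entry of pyruvate into mitochondrial metabolism, 1 rose and 3 fell with age in AL mice, against 20.6% of all genes called. Pdhb and Pdhx, components of the pyruvate dehydrogenase complex, fell by 0.29 (from 104 to 84.99 FPKM; limma, adjusted p = 0.00480) and 0.28 (from 26.0 to 21.4 FPKM; limma, adjusted p = 0.00639). Pdk3, a kinase that inhibits the complex, fell by 0.23 (limma, adjusted p = 0.0276), and Pdp1, a phosphatase that activates it, rose by 0.58 (limma, adjusted p = 0.0324). These calls were lost in 5 of 32 alternatives for Pdk3 and 8 of 32 for Pdp1. The other kinases Pdk1, Pdk2 and Pdk4 did not pass. Of 10 genes of the shuttles that carry NADH equivalents from the cytosol into mitochondria, 2 fell and none rose. Gpd1, the cytosolic glycerol phosphate dehydrogenase, fell by 0.84, from 62.3 ± 4.16 FPKM (SD, n = 5) to 35.1 ± 5.29 FPKM (SD, n = 6; limma, adjusted p = 0.00170). In CR mice at 15 months it was 50.7 ± 15.2 FPKM (SD, n = 6) and did not pass against AL mice (limma, adjusted p = 0.129). Gpd2, its mitochondrial counterpart, fell by 0.20 (limma, adjusted p = 0.0488), a call at the edge of the threshold that was lost in 23 of 32 alternatives.

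Since several glycolytic genes are known targets of the hypoxia-inducible factor, 15 genes of that factor and its targets were counted as well. With age in AL mice 2 rose and 3 fell, around a median of -0.02, against 20.6% of all genes called. Arnt, the constitutive partner of the factor, rose by 0.40 (limma, adjusted p = 0.00568) and Adm, encoding adrenomedullin, by 0.87 (limma, adjusted p = 0.00648). Vhl, which targets the factor for degradation, fell by 0.36 (limma, adjusted p = 0.0101), Ddit4, an inhibitor of mTOR signaling, by 0.63 (limma, adjusted p = 0.00131) and Car9, a carbonic anhydrase with group means of 0.115 to 0.672 FPKM, by 1.13 (limma, adjusted p = 0.0206). Hif1a was level, with group means of 20.6 to 21.98 FPKM.

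In the other comparisons few genes of these lists passed, as was so for all genes (3.36% with age in CR mice, 0.742% between diets at 15 months). In CR mice Gapdhs rose with age by 0.55 (limma, adjusted p = 0.0301), a call lost in 7 of 32 alternatives, among them the omission of CR replicate 1, 2 or 4 at 5 months or 0 or 1 at 15 months. Car9 fell by 1.79 (limma, adjusted p = 0.00378). At 15 months P4ha1, a collagen prolyl hydroxylase subunit on the hypoxia list, was 20.9 ± 3.49 FPKM in CR and 14.3 ± 0.831 FPKM in AL mice (SD, n = 6 each), a log2 difference of 0.53 (SE 0.10, limma, adjusted p = 0.0281, range over alternatives 0.00263 to 0.144). It did not pass without any 1 of 6 libraries at 15 months (AL replicate 0, 1 or 4, CR replicate 1, 2 or 3), nor in a fit of those groups alone. No gene of the 6 lists passed between diets at 5 months or in the interaction. With the region score as a covariate none of these list genes passed. Lost were 20 calls with age in AL mice, 2 with age in CR mice and that of P4ha1. Some estimates with age in AL mice shrank, such as Gpd1 (-0.84 to -0.11), and Pdp1 and Slc2a3 turned sign. Others held or grew, such as Arnt (0.40 to 0.39), Pdhb (-0.29 to -0.35) and Pdk3 (-0.23 to -0.41). The score separated the AL ages, and the cause of the lost calls was not tested.

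The gene models on GRCm38 (GENCODE release M21) place Hk1 at chr10:62268855-62379908, Pfkl at chr10:77986947-78010083, Pfkp at chr13:6579768-6648777, Aldoa at chr7:126795234-126800751, Tpi1 at chr6:124810586-124814296 and Ldhb at chr6:142490249-142507957 on the minus strand. Pfkm lies at chr15:98092589-98132451, Pgk1 at chrX:106187100-106203699, Pgam1 at chr19:41911923-41918660 and Ldha at chr7:46841475-46855627 on the plus strand. All are protein-coding, and FPKM counts their exons. Aldoa, Pgk1, Pgam1 and Ldha have 11 named copies (pseudogenes or retrogenes) in that annotation. Only 2 of them, both copies of Aldoa, have rows of their own in the matrix. Reads of these 4 genes may have been divided with a copy, which was not tested. The 3 phosphofructokinase genes, Hk1, Tpi1 and Ldhb have no copy named after them, and copies under other names were not counted. The name Aldoa belongs to 2 genes in that annotation, and a single locus is given here.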

How the data were processed

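CA1 mRNA was sequenced from 22 mice, 1 library each (TruSeq RNA v2, which does not keep strand; RNA integrity number 9 on average, per the labels). FPKM were used as deposited. The authors aligned reads to mm10 with TopHat and used Picard to remove reads judged to be PCR duplicates. They then estimated FPKM with Cufflinks, correcting for fragment bias and multiply mapped reads. Tool versions, the gene annotation and the sequencing run of each library are not given in the sources used here. Reads could not be recovered, since at most 0.478% of low genes lay on a common ratio in any of 3 pairs of libraries (within 0.001), so the depth behind single values is unknown and precision comes from the spread between mice. Columns were mapped by the sample descriptions, which hold the column names, and groups were read from the sample titles. No value column was left out. Between libraries, 18281 to 19175 genes were above 0, the correlation of log2 levels across genes (not independent replicates) was 0.889 to 0.945, and 0 columns were identical.

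From the FPKM, log2(FPKM + 0.1) was fitted for 16978 genes (mean of 0.1 FPKM or more), all 4 groups in 1 model (limma 3.58.1, R 4.3.3, eBayes with an intensity trend, two-sided, Benjamini-Hochberg over all genes tested within each comparison). The authors tested with Cuffdiff, which needs reads. For ratios, exact permutation tests (two-sided, difference of means) were run in Python 3.11.15 (scipy 1.17.1, numpy 2.4.6, pandas 2.3.3; figures with matplotlib 3.10.9). Scripts were tested on simulated data. The 10 genes, the pathway and marker lists and the tests were chosen with earlier results of these data known. All 10 genes are named, together with called genes of 6 pathway lists and isoforms or neighboring enzymes of the 10, except for a result that is not reported here; for likeness, the 5 genes averaging 1 FPKM or more that correlated best with the mean standardized log2 level of the 10.

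The alternative settings were pseudocounts of 1 and 0.01, no filter on levels except an FPKM above 0 somewhere, a filter at 1 FPKM, a common median, quantile normalization, no trend, separate fits, the replicate number as a block, the region score as a covariate, and each library left out. Recomputing the pathway list genes under them was chosen after seeing the data. For these genes too, an omitted library outside the groups compared left the estimate unchanged and could alter only the adjusted p. The numbers in the titles did not pair the mice: over 31 pairs of libraries that share a number, deviations from group means correlated by -0.139 to 0.163, above 0.1 in 2.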

Additional observations from a re-analysis of the deposited data

Results flagged for a closer look

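In 2 of the 40 sets of values tested (10 genes in 4 groups), 1 library stood apart from the rest of its group by Dixon's criterion at the 95% level; chance alone gives about 1 in 20. Hk1 was 113 FPKM in replicate 4 of the CR mice at 5 months, where the other 4 mice had 103 to 105 FPKM. Pgam1 was 217 FPKM in replicate 3 of the CR mice at 15 months, where the other 5 mice had 263 to 271 FPKM. That library also had the lowest Pgk1 (201 FPKM), Ldha (151 FPKM), Pfkm (126 FPKM) and Pfkp (43.2 FPKM) of all 22.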

How the results depend on the processing

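The numbers of the 10 genes called, the 22 fold changes of these genes that are printed with a standard error, and the 12 ratio differences were recomputed under the alternatives that apply to each. For the numbers called and the fold changes, the omissions include libraries outside the groups compared. Leaving out such a library keeps the estimate and its direction and can alter only the adjusted p, so part of what was kept was fixed in advance. Numbers of genes called kept within 1.5 times in 46 of 49 values without a library left out and in 107 of 110 with 1 left out; these fold changes kept direction and call in 208 of 218 and 477 of 484; ratios in 24 of 24 and 117 of 132. With age in AL mice 4 genes passed after quantile normalization, where Hk1 (0.18, adjusted p = 0.0482) and Pfkm (0.23, adjusted p = 0.00389) joined Pfkl and Pfkp, while Aldoa turned to 0.0698 and Pgam1 to 0.0113; with the region score as a covariate 0 passed. Over all alternatives the limma adjusted p with age in AL mice ran from 0.000246 to 0.457 for Pfkl and from 0.000825 to 0.912 for Pfkp, and that of Pfkp between diets at 15 months from 0.0355 to 0.408. With the replicate block, 1 gene passed with age in CR mice (Pfkl, -0.36, adjusted p = 0.0461), Ldhb with age in AL mice became -0.00440 and Pfkp with age in CR mice -0.0153; the block changed no other call of the 10 genes. Pfkp with age in CR mice was -0.24 with the region score. With 1 library left out, genes called numbered 0 to 1 with age in CR mice (1 without CR replicate 3 at 15 months) and 0 to 1 between diets at 15 months (1 without CR replicate 0 or 5), Ldhb with age in AL mice ran from -0.00819 to 0.0865, and Pfkp with age in CR mice from -0.0407 to 0.149. Leaving out 1 library gave differences in the log2 ratio of Ldha to Ldhb from -0.24 to -0.11 with age in AL mice (passing at 0.0476 without AL replicate 2 at 15 months), from -0.35 to -0.20 with age in CR mice (0.0476 without CR replicate 0 at 15 months), from 0.0898 to 0.143 between diets at 5 months (0.0476 without CR replicate 4) and from -0.0819 to 0.0709 between diets at 15 months, as exact permutation p adjusted over 12. Likewise, Pfkm to Pfkp ran from -0.0636 to 0.0682 with age in CR mice and from 0.24 to 0.37 between diets at 15 months (0.0476 without CR replicate 0), and Pfkm to Pfkl from 0.83 to 0.98 with age in AL mice (0.0476 without AL replicate 2 at 15 months) and from 0.38 to 0.60 with age in CR mice (0.0476 without CR replicate 3 at 15 months). The adjustment takes all 12 ratio tests together, so each pass also rests on the p of the other ratios. Ratios whose groups do not hold the omitted library were not counted, although their adjusted p can change with it. Of the 20 calls of list genes with age in AL mice, 14 to 20 held when a library was left out, the fewest without AL replicate 2 at 5 months, where Car9, Gpd2, Pdk3, Pdp1 and Slc2a3 were among those that did not pass; with the region score Pdp1 turned to -0.0316 and Slc2a3 to -0.0205. The cause of these changes was not tested. The depth behind the FPKM is unknown.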

Other observations

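Gapdh, which encodes the glyceraldehyde phosphate dehydrogenase of glycolysis, was listed at 15.4 ± 1.96 FPKM in AL and 15.8 ± 1.69 FPKM in CR mice at 5 months (SD, n = 5 each), and at 15.1 ± 3.96 FPKM in AL and 15.9 ± 1.99 FPKM in CR mice at 15 months (SD, n = 6 each). These levels are far below those of the enzymes before and after it, Tpi1 (331 FPKM) and Pgk1 (252 FPKM) over all libraries. How the authors' counting treated reads that Gapdh shares with near-identical copies elsewhere in the genome was not tested here, so the listed value may not be its full transcript level.

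The 5 genes whose log2 level followed the mean standardized level of the 10 genes most closely over the 22 libraries were Pkm, the pyruvate kinase (Pearson r = 0.901), Akr1a1, an aldehyde reductase (0.888), Mdh1, the cytosolic malate dehydrogenase (0.874), Snap47, a SNARE protein (0.874), and Syp, encoding the synaptic vesicle protein synaptophysin (0.872), out of 13829 genes compared. The libraries share tissue composition and scaling, so these values are descriptions.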
